A study of Mus musculus with 14 samples.

Results

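Genes of fatty acid oxidation and ketogenesis were described in the livers of mice fed palatinose or sucrose. The group comprised 31 genes chosen by name for their role: the regulator Ppara, the carnitine shuttle, the mitochondrial and peroxisomal enzymes of beta-oxidation, the ketone body enzyme Bdh1 and targets of Ppara. Of these 31 genes, 29 had a probe named here and 26 were measured, among 8829 features (8146 named genes and the unnamed probes) tested over the whole array. Hadha and Acsl1 had no probe named here, and the only probe of Fabp1, of Crot and of Vnn1 was detected on 0 of 14 arrays. For those 5 genes no level is given. The 26 measured genes were each detected on 14 of 14 arrays, and 14 of them are mitochondrial and 5 peroxisomal enzymes of beta-oxidation.

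Liver takes up fatty acids and burns them by beta-oxidation, which shortens the acyl chain a pair of carbons at a time. In mitochondria the acyl group enters on carnitine, an acyl-CoA dehydrogenase passes electrons through the electron transfer flavoprotein to the respiratory chain, and the acetyl-CoA formed is burnt or made into ketone bodies. Peroxisomes hold a parallel set of enzymes that shortens very long and branched chains. The nuclear receptor PPAR alpha, encoded by Ppara, senses fatty acids and, paired with the retinoid X receptor, switches many of these genes on during fasting. It binds a repeat of AGGTCA with a single base between the copies.

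The livers came from 14 male C57Bl/6J mice, 7 on a palatinose diet and 7 on a sucrose diet of equal energy content, kept under specific-pathogen-free conditions. Sucrose and palatinose (isomaltulose) both join glucose to fructose, and enzymes of the gut cleave the bond in palatinose slowly. By their titles both groups were fed for 22 weeks, while their age label says 18 weeks, a conflict the labels do not settle. Total RNA of each mouse was labelled with biotin and hybridised to 1 Illumina MouseRef-8 v2 array, and levels are log2 intensities after background correction and quantile normalization. A log2 difference of palatinose minus sucrose above 0 is higher with palatinose, and 1 unit is a doubling of the normalized signal.

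The 250 bases before the start were read from RefSeq (GRCm38.p6) for the 25 members that matched, and sequence outside these windows was not searched. Angptl4, Acaa2, Hsd17b4, Crat, Vnn1 and Decr1 are named only. The full element AGGTCANAGGTCA, searched on both strands, was in the window of 0 members and of 0.0335% of all 32851 promoters. Its looser form AGGNCANAGGNCA was in the window of Fabp1 alone among the members and in 0.338% of all promoters. The single copy AGGTCA was in Acadm, Acadvl and Fabp1, and in 14% of all promoters. These letters describe the windows and do not show binding. Shown here are Ppara and Pdk4, whose levels are set against each other further on, and the 3 members with a match, 5′ to 3′ on the strand of the gene, with matches in capitals. Ppara lies on the plus strand (chr15:85735526-85735775), Pdk4 on the minus strand (chr6:5496279-5496528), Fabp1 on the plus strand (chr6:71199629-71199878), Acadm on the minus strand (chr3:153944644-153944893) and Acadvl on the minus strand (chr11:70015429-70015678).
Ppara: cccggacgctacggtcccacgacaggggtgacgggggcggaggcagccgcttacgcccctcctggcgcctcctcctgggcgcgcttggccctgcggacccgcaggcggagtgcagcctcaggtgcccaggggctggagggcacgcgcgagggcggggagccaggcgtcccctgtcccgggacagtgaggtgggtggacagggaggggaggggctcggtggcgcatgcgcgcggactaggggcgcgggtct
Pdk4: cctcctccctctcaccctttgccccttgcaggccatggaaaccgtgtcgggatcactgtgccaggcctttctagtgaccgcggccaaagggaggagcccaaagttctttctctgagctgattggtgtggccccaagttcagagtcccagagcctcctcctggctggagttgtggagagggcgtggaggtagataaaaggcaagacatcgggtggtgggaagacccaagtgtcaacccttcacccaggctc
Fabp1: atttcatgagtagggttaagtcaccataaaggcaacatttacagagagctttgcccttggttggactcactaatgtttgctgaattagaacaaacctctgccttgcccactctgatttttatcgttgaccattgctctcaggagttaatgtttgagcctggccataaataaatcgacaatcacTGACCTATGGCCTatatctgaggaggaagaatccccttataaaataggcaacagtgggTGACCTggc
Acadm: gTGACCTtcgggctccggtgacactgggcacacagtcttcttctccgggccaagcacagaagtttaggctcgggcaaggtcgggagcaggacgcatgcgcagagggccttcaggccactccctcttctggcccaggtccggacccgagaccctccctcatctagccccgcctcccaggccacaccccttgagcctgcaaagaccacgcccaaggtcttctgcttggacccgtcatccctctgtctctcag
Acadvl: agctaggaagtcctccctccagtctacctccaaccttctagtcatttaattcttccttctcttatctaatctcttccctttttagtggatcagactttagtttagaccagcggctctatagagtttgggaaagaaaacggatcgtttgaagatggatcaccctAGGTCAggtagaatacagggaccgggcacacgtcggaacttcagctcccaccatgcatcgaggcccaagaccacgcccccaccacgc
The Fabp1 match to the looser form read on the other strand, at positions -67 to -55 from the start, and includes 1 of its 2 copies of AGGTCA. The Acadm copy also read on the other strand, while the Acadvl copy read forward, at positions -87 to -82. The windows printed for Ppara and Pdk4 hold no copy of AGGTCA.

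Several arrays stood apart and are named by diet and column code. Arrays detected 11457 to 12476 probes, and the highest number and the highest mean signal (256.8, against 190.2 to 214.9 elsewhere) were those of SUC_424_02. On that array 17.2% of features lay more than 0.5 log2 from their median over the arrays, against 0.963% to 7.34% on the other arrays, and 10 of the 26 members did so, against 0 to 3. Hepatocyte markers were detected for 7 or 8 of 9 genes on each array. Skeletal muscle markers were detected for 12 to 14 of 14 genes on PAL_407_04, PAL_417_03, PAL_429_03 and SUC_415_02 and for 2 to 6 genes elsewhere. Their summed signal was 75 to 7818 (median 117) with palatinose and 70 to 4744 (median 87) with sucrose. Pancreatic acinar markers were detected for 1 to 3 of 16 genes with palatinose, with sums of 223 to 370, and for 1 to 16 genes with sucrose, with sums of 236 to 6008. The high sucrose arrays were SUC_421_03 (12 genes, 5800) and SUC_415_02 (16 genes, 6008). Adipocyte markers were detected for 0 to 4 of 6 genes, with Retn and Plin1 on no array. In whole liver, fewer cells of a type and less RNA per cell cannot be told apart.

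None of the 26 members passed the test between palatinose and sucrose livers. With limma, 0 members and 0.0% of the 8829 features had an adjusted p under 0.05, and the lowest adjusted p among members was 0.681. The differences of the members ran from -0.30 (Decr2, an auxiliary peroxisomal reductase) to 0.36 (Pdk4, which shuts off glucose oxidation). Of the 26 members 16 were above 0 and 10 below, with a median of 0.031, while 54.8% of all features were above 0, with a median of 0.014. At an unadjusted p under 0.05 there were 3 members (11.5%) against 7.1% of all features. Crat was above 0, as were 3.75% of all features at that p, and Acaa2 and Decr2 were below, as were 3.35%. Without SUC_424_02 there were 2 members (7.69%, Acaa2 and Decr2) against 7.17%. The values of palatinose and sucrose arrays overlapped for each of the 26 members.

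**Figure D1:**
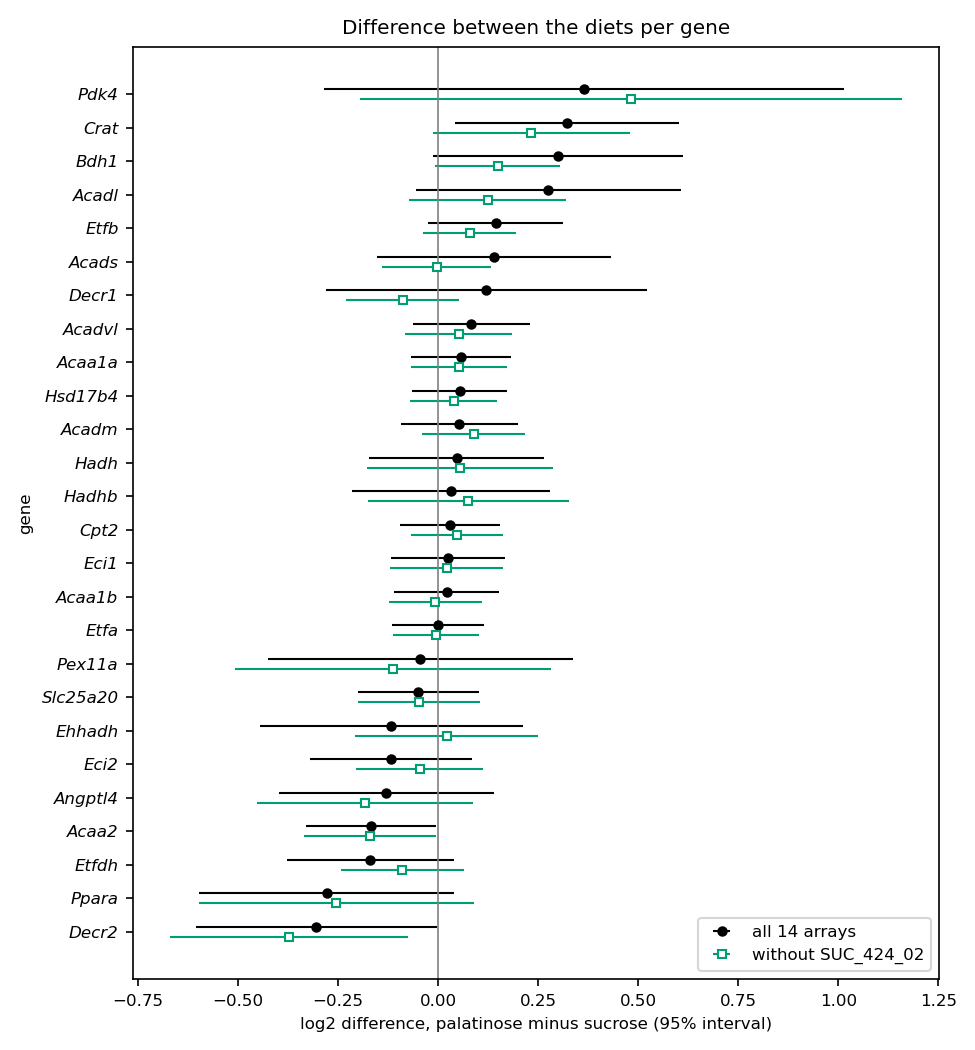
Log2 difference of palatinose minus sucrose for each of the 26 measured genes, with 95% confidence intervals from limma, over all 14 arrays (black circles) and without SUC_424_02 (green squares). The differences run from -0.30 for Decr2 to 0.36 for Pdk4, and those of Decr1, Acads, Acaa1b and Ehhadh cross 0 when SUC_424_02 is left out.

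The intervals limit the size of a difference on the tested probe. For Pdk4 the 95% interval reached a 2.02-fold difference, and for the tested probes of the other members it stayed within 1.53-fold in either direction. They do not bound the gene where its probes differ: another kept probe of Crat had an interval of -0.53 to -0.094, against 0.042 to 0.60 on the tested one. The constant of 16 added before taking logs draws the differences of dim probes toward 0, so for such probes the interval does not bound the fold of the RNA itself.

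Ppara had lowest, median and highest log2 intensities of 5.76, 6.00 and 6.78 in palatinose livers, against 6.11, 6.48 and 6.60 in sucrose livers. Of the palatinose arrays 5 lay below the lowest sucrose array, and the remaining pair, PAL_407_04 and PAL_429_03, lay above the highest. The means were 6.15 ± 0.41 with palatinose and 6.42 ± 0.17 with sucrose (SD, n = 7 each), a difference of -0.28 (95% interval -0.60 to 0.040, adjusted p = 0.722). Both high palatinose arrays were among the 4 arrays with muscle transcripts. The other such palatinose array, PAL_417_03, read 6.09, and SUC_415_02 read 6.49, within the range of the sucrose arrays.

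Leaving out the 4 arrays with muscle transcripts, a choice made after seeing the data, put all 4 remaining palatinose values (5.76 to 6.00) below all 6 remaining sucrose values (6.11 to 6.60). Both palatinose arrays above the sucrose range were among those left out, so this separation was fixed by the choice. Intervals and p-values at these settings do not account for it. The difference for Ppara was then -0.54 (-0.78 to -0.31, adjusted p = 0.263), and it still did not pass over all features. At this setting 7.69% of members (Hadh and Ppara) and 9.63% of all features had an unadjusted p under 0.05. The share of all features whose values separate by diet at this setting is not given here. Without the arrays with muscle or pancreas transcripts and SUC_424_02, 4 palatinose against 4 sucrose, the Ppara difference was -0.45 (-0.67 to -0.23, adjusted p = 0.209). There 5 of 26 members (19.2%) and 11.6% of features had an unadjusted p under 0.05. The part of muscle transcripts in the level of Ppara was not tested.

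Pdk4, the kinase that blocks pyruvate dehydrogenase when fatty acids are burnt, varied most among the members, with an SD of 0.67 over the 14 mice. Its lowest, median and highest log2 intensities were 6.24, 6.58 and 8.27 in palatinose livers, against 5.79, 6.57 and 7.21 in sucrose livers. The highest values were again those of PAL_429_03 (8.27) and PAL_407_04 (7.59), and the groups overlapped between 6.24 and 7.21. The difference was 0.36 (-0.29 to 1.01, adjusted p = 0.802), and 0.036 without the 4 arrays with muscle transcripts. It was 0.27 (-0.18 to 0.73) without the 6 arrays and 0.48 (-0.20 to 1.16) without SUC_424_02. Pdk4 is known to be expressed in skeletal muscle too, and the part of muscle transcripts in its level was not tested. Angptl4, a secreted inhibitor of lipoprotein lipase and a PPAR alpha target, had 10.36 to 11.20 with palatinose and 10.69 to 11.24 with sucrose, a difference of -0.13 (-0.40 to 0.14).

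**Figure D2:**
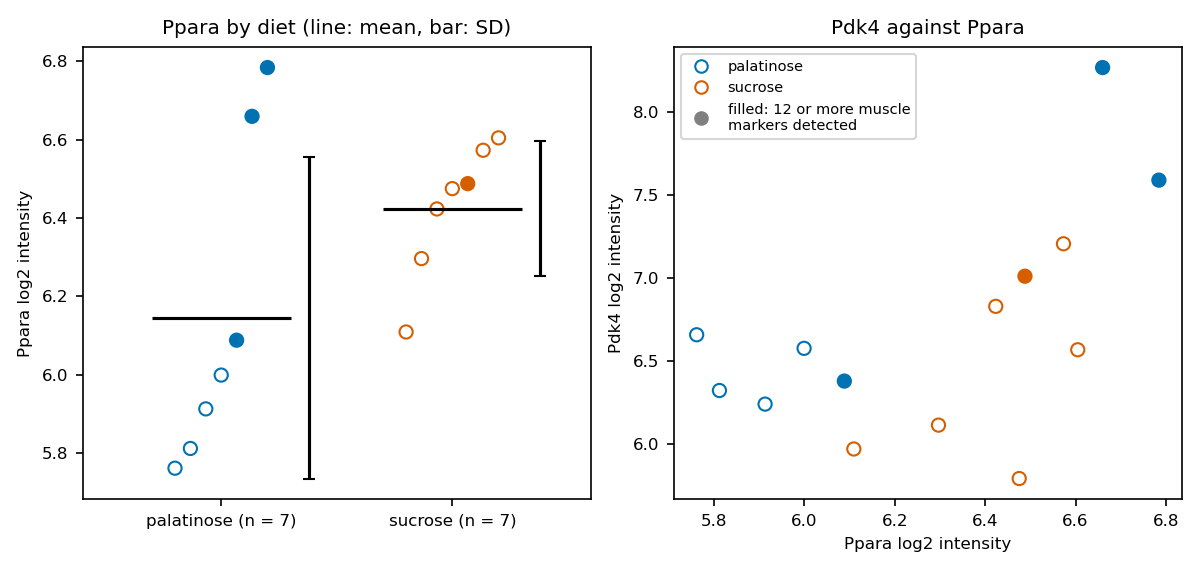
Left, log2 intensity of Ppara per mouse by diet, with the mean as a line and the SD as a bar. Right, log2 intensity of Pdk4 against Ppara, 1 point per mouse, filled where 12 or more muscle markers were detected. The 2 palatinose arrays highest for Ppara (6.78 and 6.66) are filled and are also highest for Pdk4 (7.59 and 8.27).

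Ppara and Pdk4 were correlated across the 14 mice with Pearson's r = 0.56 (permutation p = 0.0346, adjusted 0.588 over 34 relations) and Spearman's rho = 0.52 (permutation p = 0.0619, adjusted 0.436). Within palatinose r was 0.88 (exact permutation p = 0.0391, n = 7) and within sucrose 0.58 (exact permutation p = 0.175, n = 7). With the mean of each diet removed r was 0.79 (permutation p = 0.00091, adjusted 0.0309), and rho was 0.68 (adjusted 0.301). Without PAL_430_01 and PAL_417_02, the arrays farthest from the median of Ppara, r was 0.64. Without the 4 arrays with muscle transcripts r was 0.19 (permutation p = 0.590) and rho 0.055 (permutation p = 0.891). With the diet means removed over those 10 arrays r was 0.49 (permutation p = 0.150, adjusted 0.600) and rho 0.41 (permutation p = 0.247), so the relation no longer passed. Within sucrose, r was 0.57 without SUC_415_02 (exact permutation p = 0.242, n = 6), close to the value with it. Without the 2 arrays with pancreas transcripts and with diet means removed r was 0.80 (permutation p = 0.00279, adjusted 0.0949), and without the 6 arrays 0.16 (permutation p = 0.719).

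The carnitine shuttle carries acyl groups into mitochondria. Crat, carnitine acetyltransferase, which also works in peroxisomes, had lowest, median and highest log2 intensities of 8.61, 8.87 and 9.26 with palatinose, against 8.11, 8.63 and 9.01 with sucrose. The lowest sucrose value was that of SUC_424_02, and 6 of 7 palatinose arrays were above the sucrose mean. Its difference was 0.32 (0.042 to 0.60, adjusted p = 0.681), and 0.23 (-0.012 to 0.48) without SUC_424_02. The other 2 probes of Crat gave -0.31 and -0.22, so the 3 probes of this gene did not share a direction.

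The remaining shuttle members lay closer together. Cpt2, which reforms acyl-CoA inside the mitochondrion, differed by 0.029 (-0.095 to 0.15) and Slc25a20, the carnitine-acylcarnitine exchanger, by -0.050 (-0.20 to 0.10). A dimmer probe of Slc25a20 gave -0.23 (-0.45 to -0.013). The tested probes of both genes had intervals within 1.15-fold, which that dimmer probe of Slc25a20 exceeded.

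The 4 acyl-CoA dehydrogenases take the first step, each for a range of chain lengths. Acadl, of long chains, had lowest, median and highest log2 intensities of 8.09, 8.34 and 8.78 with palatinose, against 7.22, 8.27 and 8.38 with sucrose. SUC_424_02 was far below the next sucrose array, at 8.14, and the other arrays of the diets overlapped. The difference of 0.28 (-0.055 to 0.61, adjusted p = 0.728) was 0.12 (-0.072 to 0.32) without that array, and the other kept probe of Acadl gave -0.37 (-0.62 to -0.12). Acads, of short chains, differed by 0.14 (-0.15 to 0.43) and by -0.0033 (-0.14 to 0.13) without SUC_424_02. Acadvl, of very long chains, differed by 0.083 (-0.064 to 0.23) and Acadm, of medium chains, by 0.053 (-0.093 to 0.20). The second probe gave -0.11 for Acads and -0.17 for Acadm.

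Electrons from these dehydrogenases pass to the electron transfer flavoprotein, formed by Etfa and Etfb, and then to its oxidoreductase Etfdh. Etfb averaged 12.62 ± 0.08 with palatinose and 12.47 ± 0.18 with sucrose (SD, n = 7 each), a difference of 0.14 (-0.025 to 0.31), with all 7 palatinose arrays above the sucrose mean. Its second probe gave 0.13, and without SUC_424_02 the difference was 0.079 (-0.036 to 0.19). PAL_429_03 (12.52) and PAL_430_04 (12.51) then lay below the sucrose mean of 12.54. Etfdh differed by -0.17 (-0.38 to 0.040), with all 7 palatinose arrays below the sucrose mean, and by -0.090 (-0.24 to 0.065) without SUC_424_02. PAL_417_03 (10.683) and PAL_407_04 (10.606) then lay above the sucrose mean of 10.605. The second, dimmer probe of Etfdh went the other way, at 0.14 (-0.029 to 0.31). Etfa differed by -0.00064 (-0.12 to 0.11) on its brightest probe and by -0.25 to -0.11 on its other 3. Across mice, for Etfa with Etfb, r was 0.19 and rho 0.11 (permutation p = 0.489 and 0.701, adjusted 0.785 and 0.986), with 0.053 within palatinose, 0.30 within sucrose and 0.063 without SUC_421_03 and PAL_417_02.

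Among the later mitochondrial steps, Acaa2, the thiolase that releases acetyl-CoA, had lowest, median and highest log2 intensities of 11.57, 11.78 and 11.92 with palatinose, against 11.65, 11.94 and 12.08 with sucrose. Only SUC_421_03, an array with pancreas transcripts, kept the groups from separating: without the 2 such arrays all 7 palatinose values lay below all 5 sucrose values. Those arrays were left out after seeing the data, and the share of all features that then separate is not given here. The difference was -0.17 (-0.33 to -0.0057, adjusted p = 0.696), and -0.20 (-0.36 to -0.044, adjusted p = 0.640) without those 2 arrays. The other 3 probes of Acaa2 gave -0.19, -0.076 and 0.13. Hadhb, the thiolase subunit of the trifunctional protein, differed by 0.032 (-0.21 to 0.28). Hadh, the short-chain hydroxyacyl-CoA dehydrogenase, differed by 0.046 (-0.17 to 0.27), and by 0.27 (0.074 to 0.47, adjusted p = 0.430) without the 4 arrays with muscle transcripts.

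Auxiliary enzymes prepare unsaturated chains for the cycle. Decr1, the mitochondrial dienoyl-CoA reductase, had lowest, median and highest log2 intensities of 9.42, 9.65 and 9.75 with palatinose, against 8.25, 9.67 and 9.90 with sucrose. The low sucrose value was that of SUC_424_02 alone, and the remaining sucrose arrays started at 9.63. The difference was 0.12 (-0.28 to 0.52), and -0.089 (-0.23 to 0.053) without SUC_424_02, so its sign rested on that array. Eci1, the mitochondrial isomerase, differed by 0.024 (-0.12 to 0.17) and Eci2, found in mitochondria and peroxisomes, by -0.12 (-0.32 to 0.084), or -0.046 without SUC_424_02.

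Decr2, the peroxisomal dienoyl-CoA reductase, had lowest, median and highest log2 intensities of 7.26, 7.72 and 8.10 with palatinose, against 7.65, 8.01 and 8.61 with sucrose. Of the palatinose arrays 5 lay below the sucrose mean, and SUC_424_02 and PAL_430_01 were the lowest arrays of their diets. The difference was -0.30 (-0.61 to -0.0021, adjusted p = 0.696), -0.37 (-0.67 to -0.075, adjusted p = 0.658) without SUC_424_02 and -0.34 on its second probe. As each array was left out in turn, the unadjusted limma p of Decr2 stayed under 0.05 only without SUC_421_03, SUC_424_02, PAL_417_02 or PAL_417_03. The probes of Decr2 were correlated across mice at r = 0.95.

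The core peroxisomal enzymes gave smaller differences. Ehhadh, the bifunctional enzyme of straight chains, averaged 9.31 ± 0.20 with palatinose and 9.43 ± 0.42 with sucrose (SD, n = 7 each), a difference of -0.12 (-0.45 to 0.21) that was 0.021 without SUC_424_02. Hsd17b4, the bifunctional enzyme of branched chains, differed by 0.054 (-0.065 to 0.17). The thiolases Acaa1a and Acaa1b differed by 0.058 (-0.067 to 0.18) and 0.021 (-0.11 to 0.15). Their transcripts are close paralogs, and how far each probe tells them apart was not tested.

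Pex11a, a PPAR alpha target that drives the division of peroxisomes, had lowest, median and highest log2 intensities of 10.64, 11.52 and 11.78 with palatinose, against 10.92, 11.69 and 11.95 with sucrose. PAL_430_01, SUC_408_02 and SUC_424_02 were the lowest arrays, and the diets overlapped throughout. The difference was -0.044 (-0.43 to 0.34, adjusted p = 0.962). All 3 probes of Pex11a followed each other across mice, at r = 0.95 to 0.97, so its SD of 0.37 between mice was seen on each of them.

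Bdh1, the mitochondrial dehydrogenase that forms beta-hydroxybutyrate, had lowest, median and highest log2 intensities of 11.18, 11.26 and 11.43 with palatinose, against 10.08, 11.04 and 11.44 with sucrose. All 7 palatinose arrays were above the sucrose mean, SUC_424_02 was lowest by far and SUC_421_03 highest. The difference was 0.30 (-0.012 to 0.61, adjusted p = 0.705), and 0.15 (-0.0065 to 0.30, adjusted p = 0.711) without SUC_424_02. Without the 2 arrays with pancreas transcripts, left out after seeing the data, it was 0.40 (0.073 to 0.73, adjusted p = 0.640), with no overlap between the diets. The share of all features without overlap at that setting is not given here. At that setting 4 of 26 members (15.4%: Bdh1, Crat, Acaa2 and Acadl) and 7.44% of features had an unadjusted p under 0.05. The second, dimmer probe of Bdh1 gave -0.17.

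**Figure D3:**
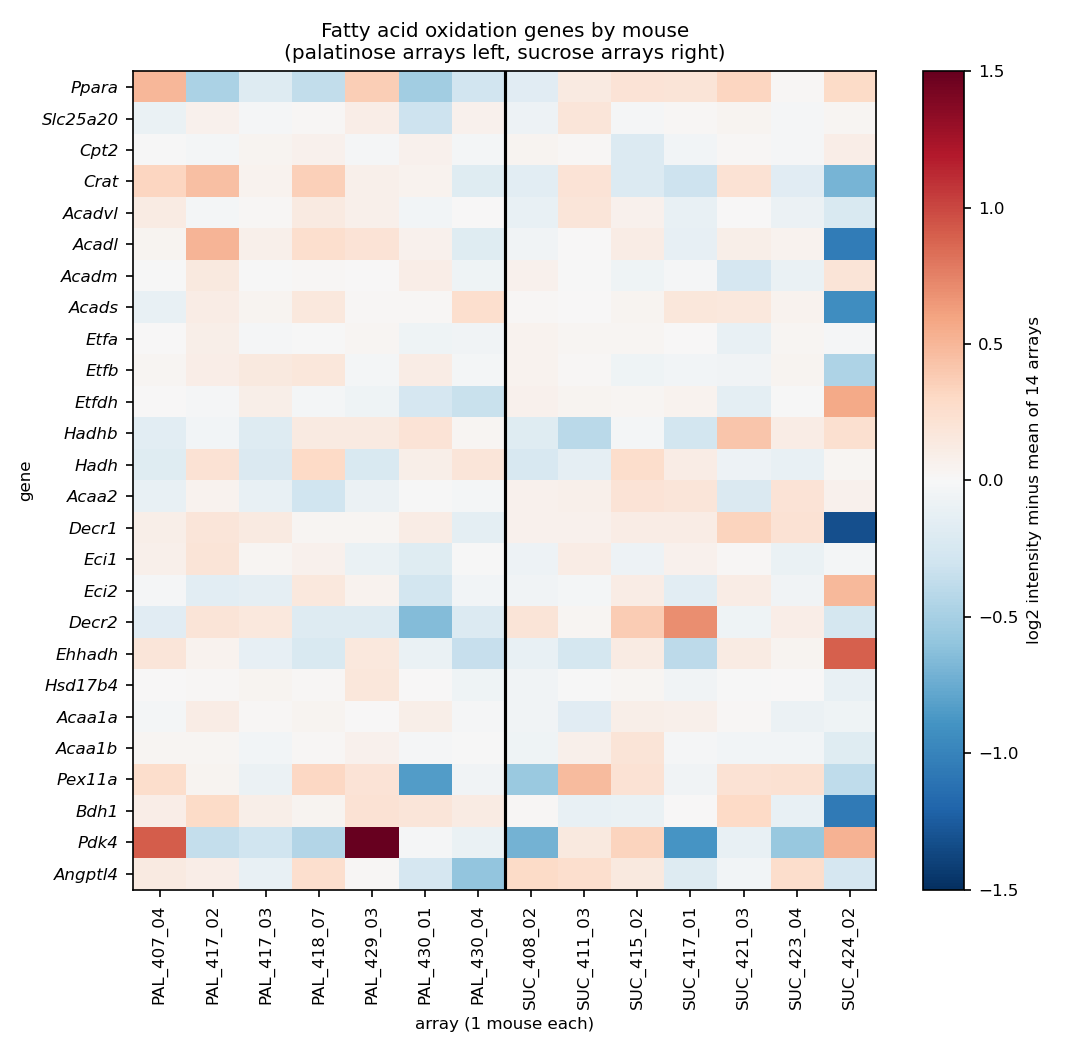
Log2 intensity minus the gene's mean over the 14 arrays (colour), for the 26 measured genes in rows and the arrays in columns, palatinose left and sucrose right. SUC_424_02 is the lowest array for 9 genes and the highest for 5, and the value of Pdk4 on PAL_429_03 lies beyond the end of the colour scale.

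On SUC_424_02 probes of a gene often disagreed. Against the median of the other 13 arrays it deviated by -1.42 for Decr1, -1.14 for Bdh1, -1.11 for Acadl, -0.98 for Acads, -0.75 for Crat and -0.50 for Etfb. The deviation was 0.99 for Ehhadh, 0.57 for Etfdh and 0.53 for Eci2. Of 12 members with several kept probes, 5 had probes of both signs on that array. This count does not set the array apart: on SUC_408_02 probes of Acaa2, Acadl, Acadm, Bdh1, Crat, Etfb and Etfdh had both signs. On SUC_424_02 a side of the split lay near 0 for Acaa2 (0.042), Crat (0.034), Etfa (-0.026) and Etfdh (-0.00059). The kept probes of Acadl deviated by 0.88 and -1.11. The 4 probes of Etfa gave -0.026, 0.48, 0.57 and 0.70. The median range between probes of a gene was 0.53 log2 over those 12 members on SUC_424_02, against 0.098 to 0.24 on the other arrays, and 0.29 over 2061 genes, against 0.14 to 0.17. Between the diets, over all 14 arrays, 7 of the 12 members (Acaa2, Acadl, Acadm, Acads, Bdh1, Crat and Etfdh) had probes of both signs.

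**Figure D4:**
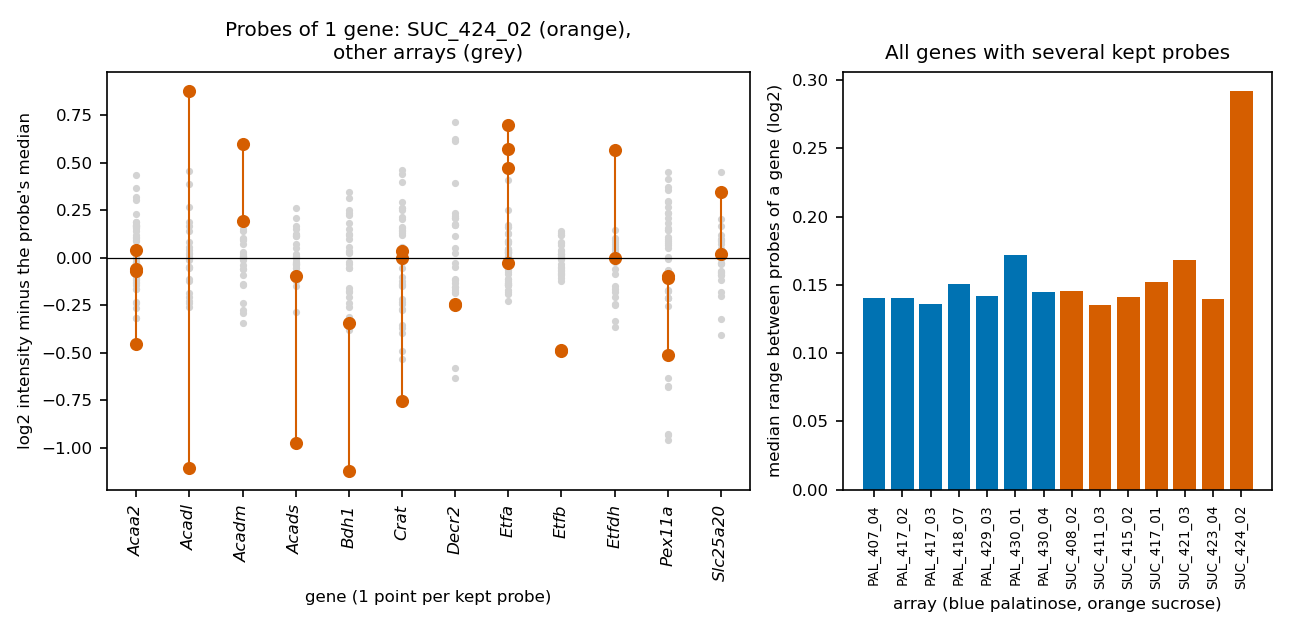
Left, log2 intensity minus the probe's median for each kept probe of the 12 members with several, on SUC_424_02 (orange, joined per gene) and on the other arrays (grey). Right, median over 2061 genes of the range between the probes of a gene, per array (blue palatinose, orange sucrose): 0.29 on SUC_424_02 and 0.14 to 0.17 on the others.

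The mitochondrial and peroxisomal enzymes were set side by side as the mean of log2 deviations per mouse, as a description with no test. The 14 mitochondrial genes averaged 0.020 ± 0.052 with palatinose and -0.020 ± 0.082 with sucrose (SD, n = 7 each), a difference of 0.040. The lowest mouse was SUC_424_02 at -0.20, and without it the difference was 0.0098. The 5 peroxisomal genes averaged -0.029 ± 0.083 with palatinose and 0.029 ± 0.072 with sucrose, a difference of -0.058, or -0.053 without SUC_424_02. Of these 5 genes 3 were above 0 and 2 below, with a median of 0.021. Decr2 was farthest from 0, at -0.30, or -0.37 without SUC_424_02, and the others ran from -0.12 to 0.058. The peroxisomal difference, and the mitochondrial minus peroxisomal value formed with it, thus leaned on 1 gene. Mice PAL_430_01 and PAL_430_04 were lowest for the peroxisomal genes, at -0.13 each, and SUC_415_02 highest at 0.16. The mitochondrial minus peroxisomal value was 0.049 ± 0.075 with palatinose and -0.049 ± 0.11 with sucrose, a difference of 0.098, or 0.063 without SUC_424_02. The ranges of the diets overlapped for each of these values. Over all 26 members the mean was 0.013 ± 0.080 with palatinose and -0.013 ± 0.075 with sucrose.

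**Figure D5:**
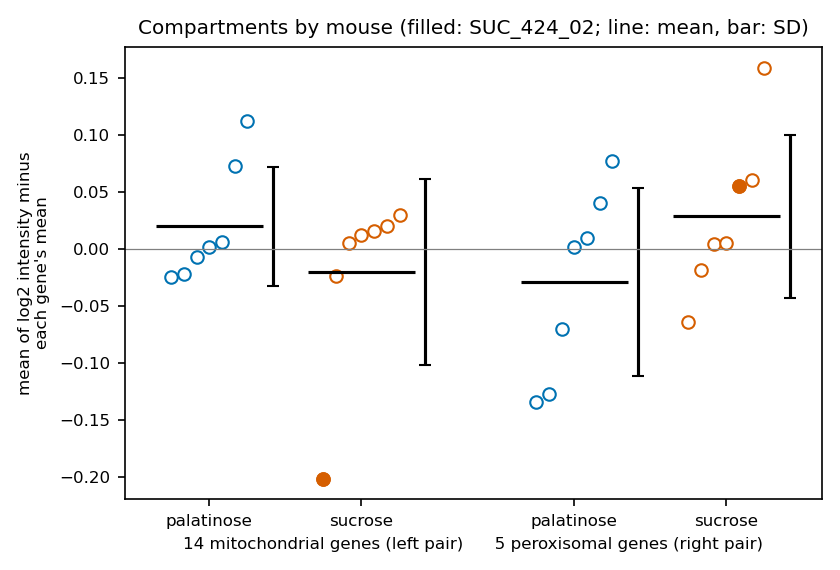
Mean deviation of log2 intensity from each gene's mean, 1 point per mouse, for the 14 mitochondrial genes (left pair) and the 5 peroxisomal genes (right pair), with the mean as a line and the SD as a bar. The filled point is SUC_424_02, the lowest mouse for the mitochondrial genes at -0.20.

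How members varied together across mice is given as a description. With the mean of each diet removed, the median r over 325 pairs of members was 0.036, and 0.0021 over all pairs of features. A correlation over 0.7 in size was seen for 23 pairs (7.08%), against 3.25% of all pairs, and without SUC_424_02 for 5 pairs (1.54%), against 2.21%. Decr1 with Bdh1 had r = 0.95, and 0.56 without that array, and Acads with Decr1 had r = 0.90, and -0.16 without it. The 5 pairs without SUC_424_02 were Ppara with Pdk4 (0.79), Cpt2 with Acaa1b (-0.78), Slc25a20 with Pex11a (0.75), Acadvl with Pex11a (0.73) and Acadm with Etfa (0.72). Points share arrays and, in each pair, any effect of the array or of other tissue in the sample.

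Of the 34 relations between chosen pairs, 0 had an adjusted permutation p under 0.05 over all 14 mice, and 4 had an unadjusted p under 0.05 by r or rho (Ppara with Etfb, Eci2, Ehhadh and Pdk4). Ppara with Etfb had r = -0.54 (permutation p = 0.0275, adjusted 0.588) and rho = -0.68 (permutation p = 0.00946, adjusted 0.322). Within palatinose r was -0.56 and within sucrose -0.58 (exact permutation p = 0.197 and 0.163, n = 7 each), and without PAL_430_01 and PAL_417_02 it was -0.47. Etfa with Etfdh had r = 0.28 and rho = 0.30 (permutation p = 0.328 and 0.304, adjusted 0.743 and 0.939), with 0.60 within palatinose, 0.13 within sucrose and 0.26 without SUC_421_03 and PAL_417_02. Acadm with Acadl had r = 0.79 within palatinose and -0.77 within sucrose (exact permutation p = 0.0321 and 0.0363, n = 7 each), and over the 13 arrays without SUC_424_02 r was 0.38 (permutation p = 0.191). Exact p-values within a diet, here and above, are not adjusted over the 34 relations. With diet means removed, the kept probes of Acadl had r = -0.68 with each other, and 0.13 without SUC_424_02.

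The rest of the pathway was read from 4 further lists. Of 27 genes of ketogenesis and other mitochondrial steps 21 were measured, 8 above 0 and 13 below, with a median of -0.013, and 0 passed. Cpt1a, the entry step of the carnitine shuttle, had no kept probe. Acad8, of valine breakdown, had 7.15 ± 0.16 with palatinose and 7.38 ± 0.16 with sucrose (SD, n = 7 each), a difference of -0.23 (-0.42 to -0.044, adjusted p = 0.678). Of 23 other PPAR alpha targets 19 were measured, 7 above 0 and 12 below, with a median of -0.023, and 0 passed. The thioesterase gene Acot3 had the smallest p of these, at -0.60 (-1.22 to 0.011, adjusted p = 0.699).

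Of 29 other peroxisomal genes 23 were measured, 7 above 0 and 16 below, with a median of -0.047. At an unadjusted p under 0.05 there were 4 (17.4%, 1 above and 3 below 0) against 7.1% of all features, and without SUC_424_02 8.70% against 7.17%. Of all features 54.8% were above 0, and 0 of the list passed. Pex3, which inserts peroxisomal membrane proteins, had 8.14 ± 0.12 with palatinose and 8.40 ± 0.08 with sucrose (SD, n = 7 each), a difference of -0.27 (-0.41 to -0.12, adjusted p = 0.575), with -0.22 on its other kept probe. Hacl1, the lyase of alpha-oxidation, differed by -0.47 (-0.85 to -0.093, adjusted p = 0.678), and by -0.31 without SUC_424_02. Ech1, a dienoyl-CoA isomerase, differed by 0.15 (0.0069 to 0.30, adjusted p = 0.696), and by 0.11 (-0.0070 to 0.22) without SUC_424_02.

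Of 22 regulators 18 were measured, 7 above 0 and 11 below, with a median of -0.032, and 0 passed. Rxra, the partner of PPAR alpha on DNA, had 7.23 ± 0.19 with palatinose and 7.46 ± 0.07 with sucrose (SD, n = 7 each), a difference of -0.22 (-0.40 to -0.048, adjusted p = 0.678). Its lowest arrays were PAL_430_01 and PAL_430_04, which share a column code. Rxrb differed by 0.27 (0.0055 to 0.54), and by 0.14 without SUC_424_02, while its other kept probe gave -0.13 (-0.30 to 0.051). Klb, the co-receptor of FGF21, differed by -0.26 (-0.49 to -0.033), and by -0.17 without SUC_424_02.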

How the data were processed

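The genes described and the lists set beside them were chosen with earlier results of these data known. Per the labels' protocols, RNA was purified on RNeasy columns with DNase and labelled by Illumina TotalPrep amplification. In the deposited table without normalization, each probe has an intensity and a detection p-value on each array, per the file headers. Of its intensities 23.05% to 26.43% per array are below 0, so background had been subtracted. The table normalized by the authors holds intensities on a linear scale, with every column median at 21, by a method for which the sources used here give no account. Its columns carry the replicate numbers and were matched to the other table by rank correlation (0.999871 or above, against at most 0.9196 for other columns).

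Intensities of 25697 probes (23978 with 1 gene symbol, 0 with several, 1719 unnamed here) went through neqc (limma 3.58.1, R 4.3.3), which corrects background from the detection p-values, adds an offset (16 here), normalizes by quantiles and takes log2. Probes detected at p under 0.05 on at least 7 of 14 arrays were kept (11628), and the brightest kept probe stood for a gene. Palatinose was set against sucrose with limma's lmFit and eBayes, two-sided and without covariates, with Benjamini-Hochberg adjustment over 8829 features. The labels call the arrays of a diet biological replicates. Column codes shared by several arrays are not explained in the labels, and the slide is not given. With the code as a random block, the fitted correlation between arrays of the same code was 0.362, so such arrays may not be independent. Arrays have no counts, and their number limits the precision. Correlations have permutation p-values from 100000 resamples, exact ones over 5040 orderings within a diet. A named member of the group had every array summarised if its unadjusted p was under 0.05, if it was Ppara, or if its SD was among the 4 widest; other lists name up to 3 genes of smallest p. Bdh1, outside this rule, was summarised likewise after its values were seen. The scripts were tested on simulated data.

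Alternatives were no further background correction, cyclic loess, the authors' values with and without the replicate number as a block, other filters, the mean of kept probes, trend and robust settings, a random block for the column code (with statmod 1.5.0) and leaving out each array. Sets of left-out arrays were added after seeing the data: those with 12 or more muscle markers detected (4), those with 12 or more acinar markers (2), and both with SUC_424_02 (6).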

Additional observations from a re-analysis of the deposited data

Results flagged for a closer look

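Among 52 groups (26 members in 2 diets) 11 held an array far from the rest of its diet, beyond Dixon's 95% critical value of 0.568 for 7 values. Chance flags about 1 in 20 groups. In 8 of the 11 the array was SUC_424_02. It was low for Acadl (7.215), Acads (9.088), Etfb (12.08), Decr1 (8.249) and Bdh1 (10.08), and high for Etfdh (11.17), Eci2 (10.70) and Ehhadh (10.26), all as log2 intensities. On the same array probes of 1 gene disagreed: the second probe of Acads deviated by -0.098 where the tested one deviated by -0.97. SUC_421_03, on which 12 of 16 pancreatic acinar markers were detected, was low for Etfa (12.72) and Acaa2 (11.65). PAL_430_01 was low for Pex11a (10.64), on each of its 3 probes. The causes were not tested.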

How the results depend on the processing

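No member passed under any of the 26 alternative settings run, where the lowest adjusted p of a member was 0.209 (Ppara without the 6 arrays). Of 676 member differences under alternatives 649 kept their sign and 27 reversed, in 13 of the 26 members. Over all features 1 passed without the filter on dim probes (of 18312, adjusted p = 0.0317) and 0 under the other settings. With the mean of each diet removed 1 of the 34 relations passed (Ppara with Pdk4), and 0 did so when the muscle, pancreas or all 6 arrays were also left out. The median member difference of 0.031 ran from 0.00049 to 0.045. Between the diets, the difference in the members' mean level per mouse ran from -0.020 to 0.056 around 0.026. That in the mitochondrial minus peroxisomal value ran from 0.063 to 0.14 around 0.098. With the mean of the kept probes of a gene, Crat was -0.071, Acadl -0.046 and Acadm -0.058. Cyclic loess gave Acadm -0.015, and the column code as a random block gave Etfa 0.0054. Without the 2 arrays with pancreas transcripts Cpt2 was -0.0015 and Pex11a 0.034, and without the 6 arrays Decr1 was -0.069 and Ehhadh 0.026. Leaving out each array in turn, differences spanned -0.0023 to 0.047 for Cpt2, -0.0033 to 0.18 for Acads, -0.020 to 0.0093 for Etfa, -0.032 to 0.10 for Hadhb and -0.00034 to 0.094 for Hadh. They spanned -0.089 to 0.19 for Decr1, -0.0066 to 0.056 for Eci1, -0.19 to 0.021 for Ehhadh, -0.0067 to 0.054 for Acaa1b and -0.14 to 0.092 for Pex11a. The causes of the reversals were not tested. Deviations of arrays with the same replicate number correlated at -0.21 to 0.17, which cannot show whether these numbers pair the mice. With the replicate block on the authors' values 0 features passed (lowest adjusted p 0.630), the median member difference was 0.031 and 4 members had an unadjusted p under 0.05 (Bdh1, Crat, Decr2 and Acadl), against 2 without the block (Crat and Acaa2). Dim probes are limited by signal over background: those of Fabp1, Crot and Vnn1 were not above it on any array.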
